A study of Mus musculus with 4 samples.

Results

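The accessibility of WNT pathway genes was examined in blood stem and progenitor cells of wild-type and Helios null mice. A peak belonged to the pathway when the deposited table assigned it to a numbered Wnt, Fzd, Sfrp, Dkk or Dvl gene, or to Lrp5, Lrp6, Ctnnb1, Apc, Axin1, Axin2, Gsk3a, Gsk3b, Porcn, Wls, Rnf43 or Znrf3. Membership went by gene name, and the list of names was drawn up with earlier results of these data known. Of 130941 peaks, 298 belonged to the pathway, and they carried 52 of the 31518 gene names in the table. The members comprised 19 Wnt ligands, 10 Frizzled receptors, 4 Sfrp and 4 Dkk inhibitors, 3 Dishevelled genes and 12 genes named singly.

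Chromatin was profiled by fast-ATAC, which uses a transposase to tag open DNA, so a higher count over a peak means more accessible chromatin. The wild-type group held 2 libraries and the Helios null group 2 libraries. All were made from flow-sorted bone marrow cells that lack lineage markers and carry Sca1 and cKit, the LSK fraction, of mice aged 10 weeks. Helios is an Ikaros-family zinc finger transcription factor encoded by Ikzf2. The labels state neither the strain nor which part of Ikzf2 is deleted.

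Wnt ligands are lipid-modified proteins that Porcn acylates and Wls carries to the cell surface. A Wnt binds a Frizzled receptor and the co-receptor Lrp5 or Lrp6, Dishevelled is recruited, and the complex of Axin, Apc and Gsk3 stops marking beta-catenin for destruction. Beta-catenin then enters the nucleus and acts with TCF/LEF factors, and Axin2 is one of its widely used target genes. In mouse bone marrow, WNT signals are known to bear on stem cell maintenance and lymphoid differentiation, and ligands such as Wnt5a act largely without beta-catenin.

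Promoter sequences were taken from RefSeq (GRCm38.p6, the assembly of the mm10 build), as the 250 bases before a start. In all, 34 of the 52 genes matched, with 39 promoters. The 6 printed here belong to genes that the results below turn on, and were chosen after their values were seen. They are all plus-strand, 5′ to 3′, and lie at chr3:159839400-159839649 (Wls), chr6:22287977-22288226 (Wnt16), chr3:132085042-132085291 (Dkk2), chr7:98838595-98838844 (Wnt11), chr15:98789607-98789856 (Wnt1) and chr16:38088751-38089000 (Gsk3b). Capitals mark a match to one of 5 core motifs, searched on both strands.
Wls: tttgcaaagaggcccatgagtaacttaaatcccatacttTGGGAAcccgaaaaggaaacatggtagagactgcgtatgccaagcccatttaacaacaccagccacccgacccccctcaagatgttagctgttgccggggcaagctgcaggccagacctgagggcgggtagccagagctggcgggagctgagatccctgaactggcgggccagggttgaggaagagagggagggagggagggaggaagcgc
Wnt16: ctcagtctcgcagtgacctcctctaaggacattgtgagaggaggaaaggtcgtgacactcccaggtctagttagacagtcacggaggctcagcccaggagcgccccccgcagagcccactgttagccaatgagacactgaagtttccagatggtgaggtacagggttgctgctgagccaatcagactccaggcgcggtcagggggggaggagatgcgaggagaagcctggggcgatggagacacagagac
Dkk2: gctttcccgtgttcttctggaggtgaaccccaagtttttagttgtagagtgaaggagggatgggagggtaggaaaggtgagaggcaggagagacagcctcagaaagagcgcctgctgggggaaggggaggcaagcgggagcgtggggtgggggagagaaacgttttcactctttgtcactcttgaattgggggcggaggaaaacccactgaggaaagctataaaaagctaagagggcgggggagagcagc
Wnt11: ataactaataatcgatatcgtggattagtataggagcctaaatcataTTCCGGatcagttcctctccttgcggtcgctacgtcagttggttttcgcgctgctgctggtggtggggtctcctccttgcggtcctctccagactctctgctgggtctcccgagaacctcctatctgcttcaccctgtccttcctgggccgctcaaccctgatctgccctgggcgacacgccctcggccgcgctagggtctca
Wnt1: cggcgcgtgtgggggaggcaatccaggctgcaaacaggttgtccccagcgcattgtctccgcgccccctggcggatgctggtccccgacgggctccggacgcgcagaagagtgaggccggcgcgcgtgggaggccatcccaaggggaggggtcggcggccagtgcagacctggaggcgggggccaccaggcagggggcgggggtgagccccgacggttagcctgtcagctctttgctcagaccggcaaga
Gsk3b: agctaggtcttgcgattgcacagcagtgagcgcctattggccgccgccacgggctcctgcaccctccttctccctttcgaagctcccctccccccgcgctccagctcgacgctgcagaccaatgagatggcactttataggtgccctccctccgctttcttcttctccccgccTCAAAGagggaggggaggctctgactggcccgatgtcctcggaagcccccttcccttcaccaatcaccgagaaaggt

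The motifs were TCF/LEF (CTTTGA), Ikaros family (TGGGAA), RUNX (TGTGGT), ETS (CCGGAA) and E-box (CACGTG). No motif contains the letters of another, on either strand. The Wls promoter held the Ikaros-family letters, that of Wnt11 the ETS letters in reverse and that of Gsk3b the TCF/LEF letters in reverse, while the Wnt16, Dkk2 and Wnt1 windows held none of the 5. A match is a description of the letters only. TCF/LEF letters stood in 6 of 39 WNT promoters (15.4%) and in 13.8% of the 32851 promoters in the table. Ikaros-family letters stood in 6 of 39 (15.4%) and in 21.6% of all, and RUNX letters in 2 of 39 (5.13%) and in 14% of all. ETS letters were found in 10.3% of WNT promoters and 12% of all, and the E-box in 7.69% and 6.02%. The WNT promoters were richer in GC, with a median of 68.0% against 52.4%, and held a median of 21 CpG against 6. A WNT peak overlapped 29 of the 39 windows.

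Total counts were 29745812 and 16033211 in wild type 1 and 2, and 30290804 and 22433714 in Helios null 1 and 2. The peak at the Ikzf2 promoter held 32.8 and 48.2 CPM, that is TMM-normalised counts scaled to the library size, in the wild-type libraries and 22.2 and 24 in the Helios null libraries. All 4 libraries thus kept counts there, and the values do not check the deletion itself. Libraries numbered 1 held 1715 and 1166 counts at 4 Y-linked genes, and libraries numbered 2 held 5 and 2, so sex moved with the library number and not with genotype. The marker lists count only genes with a peak. Of the listed markers of the sorted fraction, Ly6a, which encodes Sca1, had no peak under that name. The other 7 all had a promoter peak. Their summed level was 877 and 871 CPM in wild type and 862 and 858 CPM in Helios null. T-cell markers, of which 1 of 3 had a promoter peak, summed to 45.1 and 33.4 CPM in wild type and 62.3 and 49.6 CPM in Helios null. Mature myeloid markers, with 1 of 4, summed to 82.8 and 88 CPM in wild type and 72.1 and 75.6 CPM in Helios null. Stromal and endothelial markers, with 3 of 6, summed to 183 to 188 CPM in wild type and 192 to 194 CPM in Helios null. These 4 sums did not overlap between genotypes, and their part in the WNT values was not tested. The B-cell sums (41.4 to 49.7 CPM) and erythroid sums (75 to 91.4 CPM) overlapped.

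WNT peaks held 0.231% to 0.239% of the counts of each library. Their summed level was 2332 CPM and 2390 CPM in wild type 1 and 2, and 2390 CPM and 2333 CPM in Helios null 1 and 2, so it did not separate the genotypes. The peaks were 74 to 2655 bp wide with a median of 406 bp, against 404 bp for all peaks. By the deposited classes 94 were intronic, 83 Distant-promoter, 51 promoter-TSS, 34 intergenic, 30 exonic and 6 at a transcript end. Exonic peaks made up 10.1% of WNT peaks and 5.02% of all. By RefSeq gene bodies, 194 peaks lay in their own gene, 84 in no gene and 20 only in another gene, such as Wnt7b peaks in AU022754 and Wnt3 peaks in Wnt9b.

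Among promoter-TSS peaks of WNT genes in wild-type cells, those of Gsk3b, Gsk3a, Wls and Axin1 were the most accessible, and those of the ligands were low. Levels were compared between genes as CPM per kb of the promoter-TSS peak, which 35 of the 52 genes had, as mean ± SD over the 2 wild-type libraries. The Gsk3b promoter, of the kinase that marks beta-catenin, held 87.3 ± 15.5 CPM per kb, which is percentile 99.0 among 14564 genes with such a peak. Gsk3a held 58.2 ± 7.04 CPM per kb (percentile 95.3). Wls held 50.7 ± 22.3 CPM per kb (percentile 92.8). The SD of Wls covers a wide gap between the libraries, 34.9 CPM per kb in wild type 1 and 66.5 in wild type 2. The scaffolds followed, with 32.0 ± 5.82 CPM per kb at Axin1, 23.7 ± 1.26 at Apc and 22.8 ± 1.15 at Axin2. Fzd7 (25.6 ± 2.16), Fzd6 (24.8 ± 3.09), Apc, Axin2 and Dvl3 (22 ± 0.99) stood next to each other in this order, and their gaps were within or close to their SD.

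All 5 genes of the destruction complex stood above the all-gene promoter median of 17.0 CPM per kb, whereas 1 of 15 ligands did. That ligand was Wnt2, at 18.2 ± 6.81 CPM per kb, which differed from the median by less than its SD. The quartiles over genes were 9.29 and 29.2 CPM per kb. Ctnnb1, which encodes beta-catenin, stood at 10.1 ± 0.06 CPM per kb (percentile 27.9). The lowest promoters were those of Wnt1 (3.81 ± 1.64), Wnt3 (3.77 ± 0.27), Wnt9b (3.39 ± 1.06) and Wnt4 (2.92 ± 0.65), the last at percentile 1.11. The order among these 4 is within their spread. The other 17 genes had no promoter-TSS peak, and the ranking left them out. Among them, Fzd1 had an exonic peak over its start that held 59.2 and 85.5 CPM in wild type (28.9 ± 7.42 CPM per kb). Fzd5 also had an exonic peak over its start, at 37.4 ± 1.75 CPM per kb. Both means were above those of Apc and Axin2, and the Fzd5 mean was above that of Axin1.

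**Figure D1:**
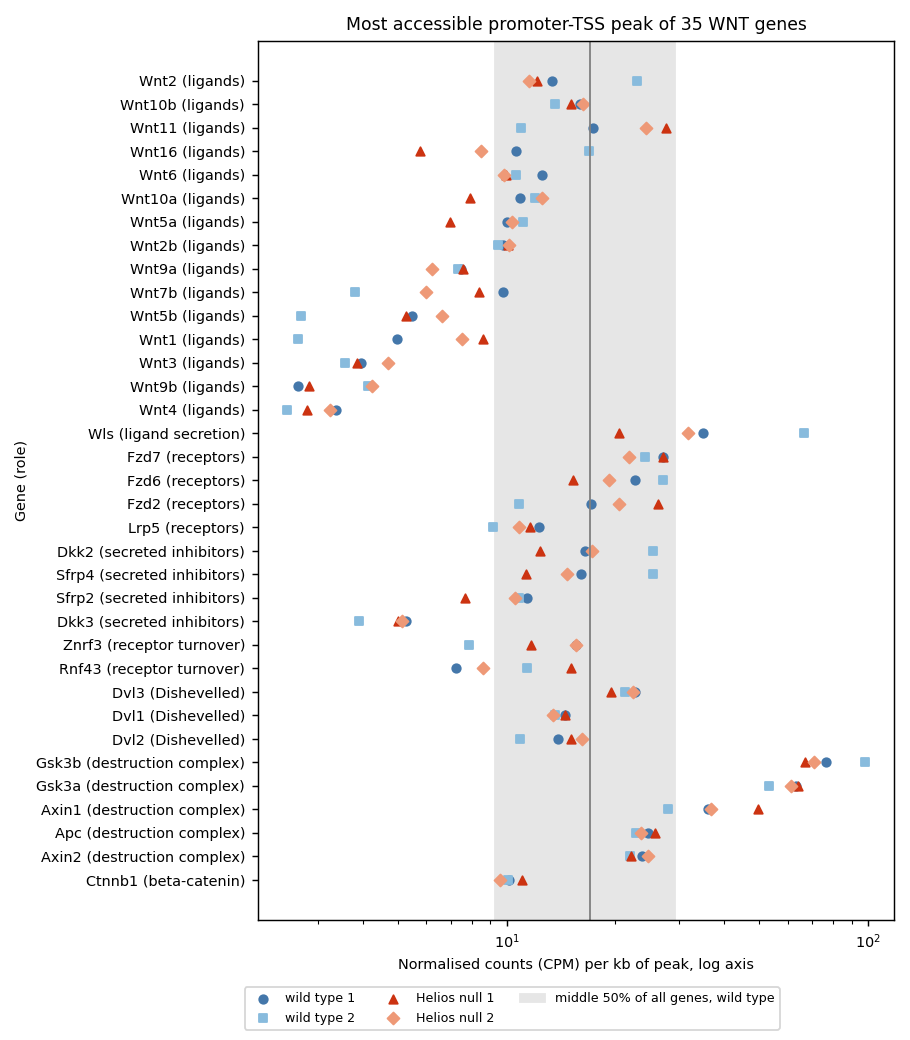
Accessibility of the strongest promoter-TSS peak of 35 WNT genes in CPM per kb, with 1 point for each of 2 wild-type and 2 Helios null libraries, grouped by role. Gsk3b, Gsk3a and Wls stand highest, and Wnt4 lowest at 2.92 CPM per kb in wild type.

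No WNT peak passed the genotype test in edgeR fitted without a term for the library number. There, 0 of 297 tested WNT peaks had an adjusted p under 0.05, and 8 of 130754 peaks did in all (0.00612%, with 0.000765% higher and 0.00535% lower). The smallest adjusted p of a WNT peak was 0.189 by edgeR. A single Wnt16 peak, with 5 to 17 counts per library, was too low to test. In such bulk libraries, fewer cells of a type and less accessibility per cell cannot be told apart. The p-values set the genotype difference among these 4 libraries against the spread within each genotype. That spread includes the differences in sex and library number. At an unadjusted p under 0.05, 33 WNT peaks (11.1%) were higher in Helios null and 19 (6.4%) lower, against 8.29% and 11.5% of all peaks. At 109 WNT peaks (36.7%, against 28.0% of all) the 2 Helios null libraries exceeded each wild-type library, and at 60 (20.2%, against 28.3%) they were under each of them. The log2 fold change of Helios null over wild type was above 0 at 183 peaks (61.6%, against 50.4%). Its median was 0.17 over WNT peaks and 0.01 over all peaks. The median size of the fold change, without its sign, was 0.41 over WNT peaks and 0.39 over all.

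The size of the tilt toward higher values depended on single libraries, while its direction stayed the same with each library left out. Wild type 2, the shallowest library, was the lowest of the 4 at 49.2% of WNT peaks, against 37.7% of all peaks. Helios null 1 was the highest of the 4 at 42.4% of WNT peaks, against 33.2% of all. The WNT median of 0.17 came to 0.10 without wild type 2 and to 0.10 without Helios null 1, and to 0.25 without wild type 1 and 0.20 without Helios null 2. Without wild type 1, edgeR called 28120 peaks in all (21.5%) and 70 WNT peaks, 41 of them higher and 29 lower, against 8.98% and 12.5% of all peaks. With wild type 2, Helios null 1 or Helios null 2 left out instead, edgeR called fewer peaks, both in all and among WNT peaks. Each of these fits leaves a single library in a group.

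The DESeq2 test called 774 of 54782 peaks (1.41%) and 2 of the 133 WNT peaks to which it gave an adjusted p. Both were higher, against 0.455% of all peaks called higher and 0.958% called lower. The authors' deposited table calls the same 774 peaks (1.41%). The first WNT peak was the Rnf43 peak described below, with a log2 fold change of 1.1 and an adjusted p of 0.0305 in the authors' deposited table. The other was the Wnt11 peak described next, with 0.88 and 0.0492 in the authors' deposited table.

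**Figure D2:**
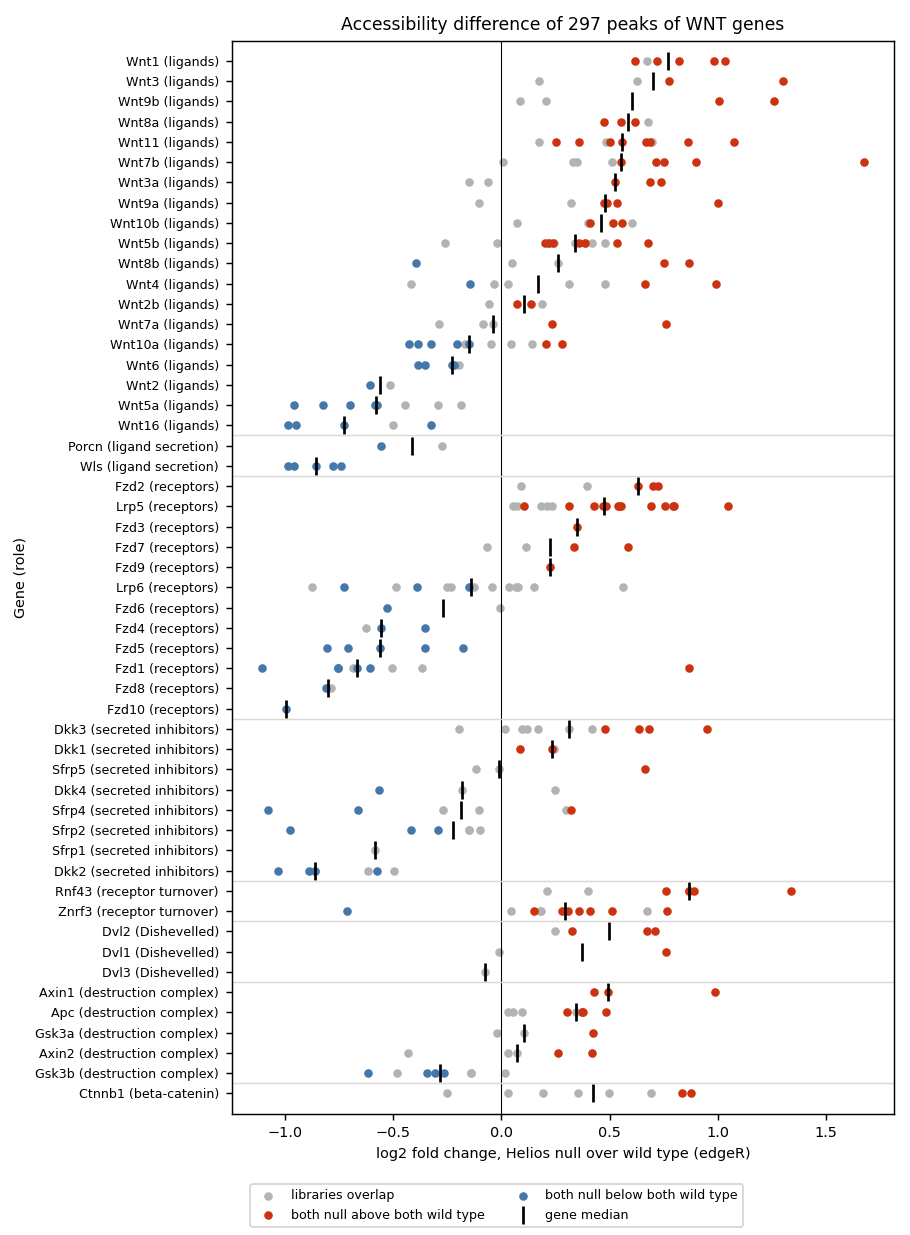
The log2 fold change of Helios null over wild type (edgeR) for each of 297 tested peaks, by gene and role, with the gene median as a bar and colour for peaks whose 2 Helios null libraries lie above or below both wild-type libraries. All 18 Lrp5 peaks and all 11 Wnt11 peaks lie above 0, and all 5 Wls peaks lie below.

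Among the ligands, peaks of Wnt11, Wnt1, Wnt3, Wnt7b and Wnt9b stood higher in Helios null libraries, and peaks of Wnt5a and Wnt16 lower. This did not hold at every promoter. The strongest promoter peaks of Wnt7b, Wnt9b, Wnt3 and Wnt5a had overlapping libraries, with log2 fold changes of 0.01, 0.09, 0.17 and -0.29. The 123 tested ligand peaks had a median log2 fold change of 0.26. At an unadjusted p under 0.05, 18 stood higher (14.6%, against 8.29% of all peaks) and 3 lower (2.44%, against 11.5%). Where the genotypes did not overlap, Helios null was above at 52 peaks (42.3%, against 28.0% of all) and below at 21 (17.1%, against 28.3%). None passed the adjusted test in edgeR.

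Wnt11 encodes a ligand known for signalling without beta-catenin. A Wnt11 peak 23.1 kb before its start, at chr7:98811754-98812211, held 4.95 and 4.97 CPM in wild type and 11.8 and 9.08 CPM in Helios null. The groups did not overlap, and the wild-type libraries were nearly equal. The log2 fold change was 1.08 (SE 0.26, edgeR adjusted p = 0.189). At the Wnt11 promoter, chr7:98837955-98838555, just before the window printed above, the levels were 10.4 and 6.59 CPM in wild type and 16.5 and 14.6 CPM in Helios null. Again the groups did not overlap, with a log2 fold change of 0.86 (SE 0.26, edgeR adjusted p = 0.189). All 11 Wnt11 peaks were above 0, with a median of 0.55, and at 8 (72.7%, against 28.0% of all) the libraries did not overlap. The median was 0.32 without wild type 2 and 0.88 without wild type 1.

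Wnt9b and Wnt3 are neighbours on chromosome 11, and several of their peaks were weak but separated. A Wnt9b peak in intron 1 held 1.5 and 1.55 CPM in wild type and 3.0 and 3.10 CPM in Helios null. A Wnt3 peak 10.2 kb before its start, which lies within the body of Wnt9b, held 0.73 and 1.10 CPM in wild type and 2.41 and 1.96 CPM in Helios null. Their log2 fold changes were 1.0 (SE 0.33) and 1.30 (SE 0.40), with edgeR adjusted p values of 0.190 and 0.189. At both, the lower Helios null library lay well above the higher wild-type library.

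Wnt1, whose protein is a classic activator of beta-catenin, had 6 of 6 peaks above 0, with a median of 0.77. Its promoter peak held 2.42 and 1.29 CPM in wild type and 4.19 and 3.66 CPM in Helios null, at a log2 fold change of 1.03 (SE 0.35, edgeR adjusted p = 0.193). Wnt7b had 9 of 9 peaks above 0, with a median of 0.55. Its widest fold change, 1.67 (SE 0.55, edgeR adjusted p = 0.191), rested on 1 library, since the peak held 1.0 and 0.90 CPM in wild type, 4.78 CPM in Helios null 1 and 1.27 CPM in Helios null 2. A Wnt8b peak 19.2 kb before its start held 3.09 and 3.16 CPM in wild type and 5.71 and 5.67 CPM in Helios null, with a log2 fold change of 0.86 (SE 0.28, edgeR adjusted p = 0.190). Wnt5b, with the most peaks of any ligand, had 13 of 15 above 0 and a median of 0.34. Among ligands with fewer or less separated peaks, Wnt8a, Wnt3a, Wnt9a and Wnt10b had medians from 0.46 to 0.58. Those of Wnt8b, Wnt4 and Wnt2b ran from 0.10 to 0.26, with Wnt7a at -0.04 and Wnt2 at -0.56. Some changed sign with a library left out. Wnt8b came to -0.29 and Wnt7a to 0.21 without Helios null 1, and Wnt4 to -0.11 without wild type 2.

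Wnt16 is known in zebrafish for its part in specifying blood stem cells. Its promoter peak at chr6:22287983-22289877, which covers nearly all of the Wnt16 window printed above, held 20.1 and 32.1 CPM in wild type and 10.9 and 16.1 CPM in Helios null. The groups did not overlap, and wild type 2 stood far above the rest. This gave a log2 fold change of -0.95 (SE 0.27, edgeR adjusted p = 0.189). Without wild type 2 it was -0.58. All 5 tested Wnt16 peaks were below 0, with a median of -0.73. All 8 Wnt5a peaks were below 0, with a median of -0.58, and the lowest p was at a peak of 4.78 and 6.65 CPM in wild type and 2.80 and 3.62 CPM in Helios null.

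**Figure D3:**
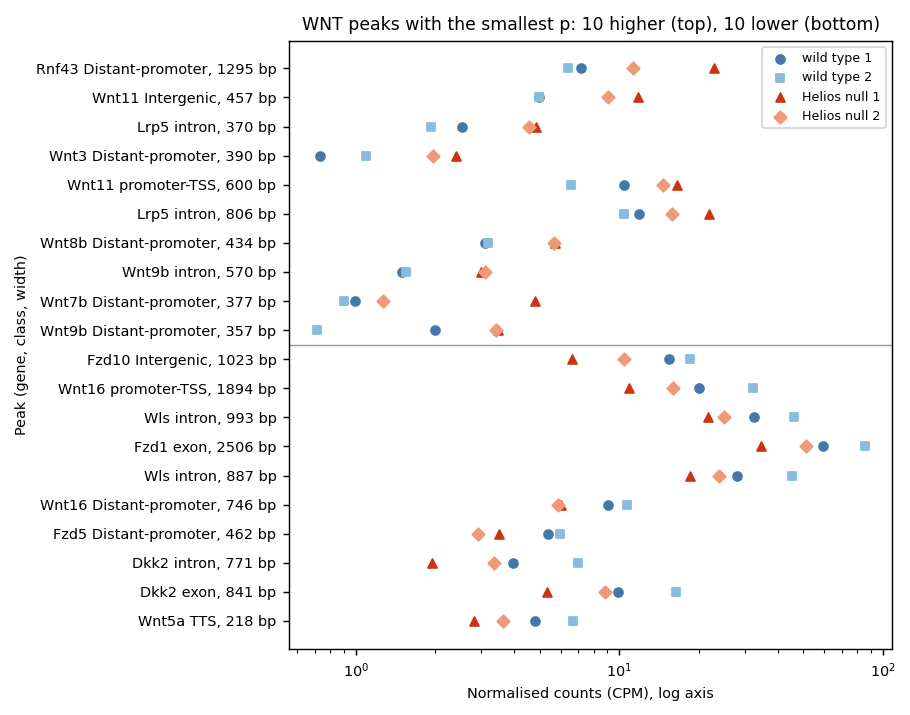
Normalised counts (CPM, log axis) in each of 4 libraries at the 10 WNT peaks with the smallest p in each direction, at most 2 per gene, with the higher ones above the line. At the Rnf43 peak Helios null 1 holds 23.0 CPM and wild type 2 holds 6.39 CPM.

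Ligand secretion had the lowest median of the 8 roles. All 7 tested peaks of Wls and Porcn were below 0, with a median of -0.78. At an unadjusted p under 0.05, 5 were lower (71.4%, against 11.5% of all peaks). These 5 were all at Wls, which has 3 assigned genes within 0.5 Mb. Among all peaks with 0 to 9 such genes, 31.4% were lower at that p. With the gene density offset described below, the median of the 7 peaks was -0.20. Wls is the carrier that takes Wnt proteins to the cell surface. At all 5 of its peaks (against 28.3% of all peaks) both Helios null libraries were below both wild-type libraries. Its promoter peak, chr3:159839438-159839908, overlaps the window printed above and held 16.4 and 31.3 CPM in wild type and 9.63 and 14.9 CPM in Helios null. The groups were close, since Helios null 2 lay just under wild type 1. The log2 fold change was -0.95 (SE 0.32, edgeR adjusted p = 0.191).

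A Wls intron peak, chr3:159841021-159842014, the strongest of the gene, held 32.4 and 45.8 CPM in wild type and 21.8 and 25 CPM in Helios null. Its log2 fold change was -0.74 (SE 0.22, edgeR adjusted p = 0.189). The median over the 5 Wls peaks was -0.86 with all libraries, -0.43 without wild type 2 and -1.28 without wild type 1. Porcn, the enzyme that acylates Wnt proteins, had 2 peaks, at -0.27 and -0.55.

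Receptor peaks lay on both sides of 0. The 65 peaks had a median of 0.06. At an unadjusted p under 0.05, 7 stood higher (10.8%) and 8 lower (12.3%), shares near the 8.29% and 11.5% of all peaks. Lrp5 and Lrp6, which encode the paired co-receptors, differed in their values. All 18 Lrp5 peaks were above 0, with a median of 0.48. At 13 of them (72.2%, against 28.0% of all peaks) Helios null lay above wild type without overlap. The Lrp5 peaks have 29 to 36 assigned genes within 0.5 Mb, and their median was 0.16 with the gene density offset described below. Of the 14 Lrp6 peaks the median was -0.14, and it came to 0.02 without wild type 2 and 0.05 without Helios null 2. The difference between the genes was not tested.

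An Lrp5 peak in intron 2, chr19:3653499-3653869, held 2.52 and 1.94 CPM in wild type and 4.82 and 4.54 CPM in Helios null. The groups were well apart, at a log2 fold change of 1.05 (SE 0.30, edgeR adjusted p = 0.189). The Lrp5 promoter was level, with a log2 fold change of 0.06 (SE 0.27). Among the Frizzled receptors, Fzd2 had a median of 0.63 over 5 peaks. Its promoter held 11.1 and 7.04 CPM in wild type and 17.0 and 13.3 CPM in Helios null.

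The lower Frizzled genes were Fzd10, Fzd8, Fzd1, Fzd5 and Fzd4, with medians from -0.99 to -0.55. Fzd3 and Fzd9, with 1 peak each, stood at 0.35 and 0.22, and the Fzd6 median was -0.27. The single Fzd10 peak, 16.7 kb past the start, held 15.4 and 18.5 CPM in wild type and 6.60 and 10.5 CPM in Helios null. It did not overlap between groups, with a log2 fold change of -0.99 (SE 0.27, edgeR adjusted p = 0.189). The Fzd1 exonic peak held 59.2 and 85.5 CPM in wild type and 34.5 and 51.3 CPM in Helios null, at -0.75 (SE 0.24, edgeR adjusted p = 0.190).

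The secreted inhibitors, which hold Wnt proteins or their co-receptors away from signalling, had a median of -0.11 over 40 peaks. At an unadjusted p under 0.05, 1 stood higher (2.5%, against 8.29% of all peaks) and 3 stood lower (7.5%, against 11.5%). Dkk2, which binds the Lrp5 and Lrp6 co-receptors, had all 7 peaks below 0 and a median of -0.86. Its median was -0.34 without wild type 2, -0.44 without Helios null 1 and -1.23 without wild type 1. Dkk3 had a median of 0.31 over 11 peaks. The Dkk2 exonic peak, which overlaps the window printed above, held 9.90 and 16.4 CPM in wild type and 5.34 and 8.81 CPM in Helios null. The groups were separate by a small margin, at a log2 fold change of -0.89 (SE 0.32, edgeR adjusted p = 0.199). The medians of Dkk1, Sfrp5, Dkk4, Sfrp4 and Sfrp2 ran from 0.24 down to -0.22. Sfrp1, which has 1 peak, had overlapping libraries, with 10.1 and 20.9 CPM in wild type and 7.59 and 13.0 CPM in Helios null.

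Rnf43 and Znrf3 encode the ubiquitin ligases that remove Frizzled receptors from the cell surface, and 18 of their 19 peaks were above 0. The median was 0.40, and at 12 peaks (63.2%, against 28.0% of all) Helios null lay above wild type without overlap. A Rnf43 peak 26.3 kb past the nearest of its RefSeq starts, chr11:87725559-87726854, had the smallest DESeq2 p of all WNT peaks. It held 7.17 and 6.39 CPM in wild type, 23.0 CPM in Helios null 1 and 11.3 CPM in Helios null 2. The groups did not overlap, and Helios null 1 stood far above Helios null 2. That difference came to a log2 fold change of 1.34 (SE 0.32, edgeR adjusted p = 0.189). Without Helios null 1 it was 0.73. All 7 Rnf43 peaks were above 0, with a median of 0.86, and the Znrf3 median was 0.29 over 12 peaks.

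Downstream of the receptors, the promoters of Ctnnb1, Axin2, Dvl1 and Dvl3 had fold changes near 0, and those of Gsk3b and Axin1 lay apart from it in opposite directions. The 7 Dishevelled peaks had a median of 0.32, and of -0.08 with the gene density offset described below. The Dvl1 promoter was at -0.01 and the Dvl3 promoter at -0.08. The 28 peaks of the destruction complex had a median of 0.08. At an unadjusted p under 0.05, 1 stood higher (3.57%, against 8.29% of all peaks) and 0 lower (against 11.5%). The Gsk3b promoter, whose upstream window is printed above, held 153 and 196 CPM in wild type and 134 and 141 CPM in Helios null. Helios null lay lower without overlap, at a log2 fold change of -0.34 (SE 0.18, edgeR adjusted p = 0.295). It came to -0.041 with loess offsets and to -0.15 without wild type 2. The Axin1 promoter held 44.4 and 34.3 CPM in wild type and 60.9 and 45.1 CPM in Helios null, at 0.43 (SE 0.21, edgeR adjusted p = 0.283).

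All 9 Apc peaks were above 0, with a median of 0.34, although its strongest promoter peak was at 0.05. Axin2, the common target gene of the pathway, had promoter levels of 11.9 and 11.1 CPM in wild type and 11.1 and 12.4 CPM in Helios null, a log2 fold change of 0.03 (SE 0.23, edgeR adjusted p = 0.951). The Ctnnb1 promoter held 8.20 and 8.14 CPM in wild type and 8.90 and 7.77 CPM in Helios null, a log2 fold change of 0.03 (SE 0.25, edgeR adjusted p = 0.954). The intron peaks of Ctnnb1 stood higher than its promoter in fold change, and the median over its 8 peaks was 0.42. That median rested on single libraries, at 0.031 without Helios null 1 and 0.71 without wild type 1. With the gene density offset described below, the Ctnnb1 median was 0.18. At 2 of the 8 peaks Helios null lay above wild type without overlap. The Distant-promoter peak of Ctnnb1 stood below its promoter in fold change, at -0.25.

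Over single genes, the median log2 fold change was above 0 in 29 and below 0 in 23 of the 52. Among 21 genes with at least 6 tested peaks, all peaks of 7 genes were above 0 and all peaks of 3 were below. The sign of the median was the same with each of the 4 libraries left out in turn in 42 of the 52 genes. Peaks of 1 gene share their neighbourhood and are not replicates of each other.

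**Figure D4:**
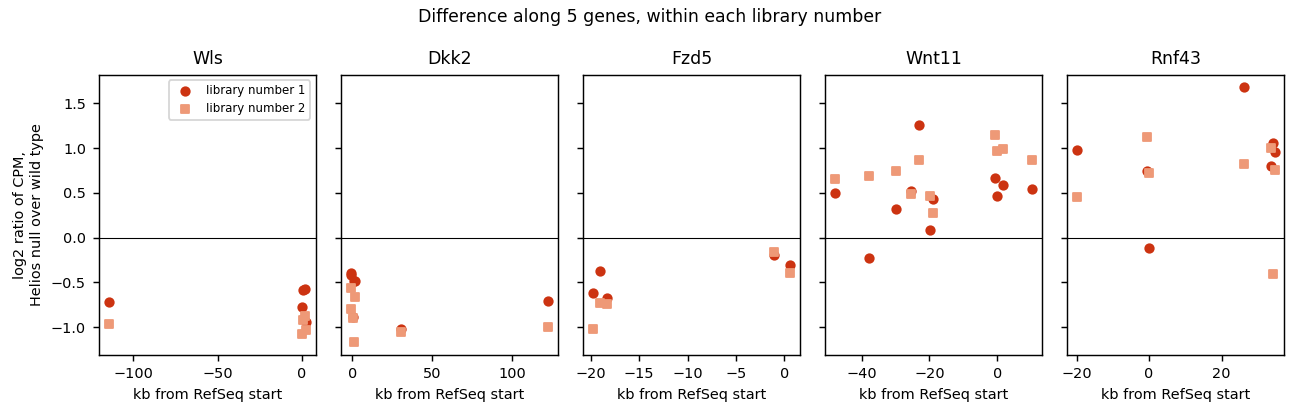
The log2 ratio of Helios null over wild-type CPM at each peak of Wls, Dkk2, Fzd5, Wnt11 and Rnf43, against distance from the RefSeq start in kb, with 1 point for each library number. The 5 genes were chosen after their values were seen, and Wls, Dkk2 and Fzd5 lie below 0 at every peak in both numbers.

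Chromosome 1 also carries Ikzf2, and 25 WNT peaks of Fzd5, Fzd7, Wnt6 and Wnt10a lie on it. Fzd5 encodes a receptor for ligands such as Wnt5a. All 5 of its peaks (against 28.3% of all peaks) had both Helios null libraries below both wild-type libraries, with a median of -0.56. The lowest, chr1:64757306-64757768, held 5.35 and 5.94 CPM in wild type and 3.50 and 2.92 CPM in Helios null. Its log2 fold change was -0.81 (SE 0.28, edgeR adjusted p = 0.195).

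In this fit the other chromosome 1 members were closer to 0. Wnt6 had 5 of 5 peaks below 0 and a median of -0.23. Wnt10a had 7 of 11 below 0 and a median of -0.15, and Fzd7 had a median of 0.22. With the gene density offset described below, Wnt6 was at -0.59 and Wnt10a at -0.51, near Fzd5 at -0.58, while Fzd7 was at 0.05. The Fzd7 promoter held 50.3 and 44.6 CPM in wild type and 50.3 and 40.5 CPM in Helios null, which overlap. Without the chromosome 1 peaks the WNT median was 0.21. Whether the nearby Ikzf2 allele has a part in these values was not tested.

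The fold change of WNT peaks moved with local gene density, counted as the number of assigned genes within 0.5 Mb. Where this number was 0 to 9, the 52 WNT peaks had a median of -0.55, the same as all peaks (-0.55), and at an unadjusted p under 0.05, 15 stood lower (28.8%, against 31.4% of all peaks there) and 1 higher. Where it was 30 or more, the 83 WNT peaks had a median of 0.41, against 0.37 for all, with 16 higher (19.3%, against 18.9% of all peaks there) and 0 lower. The shares in both bins are near those of all peaks in the same bin. Between 20 and 29 both medians were 0.18. Between 10 and 19 they were 0.17 over 59 WNT peaks and -0.12 over all. WNT peaks lay in denser surroundings, with a median of 22 genes against 18 for all peaks.

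With the density trend removed as an offset, the WNT median was 0.07 in place of 0.17, edgeR again called 0 WNT peaks, and 5 genes changed the sign of their median. Wls, with 3 genes nearby, went from -0.86 to -0.11, and Wnt5a from -0.58 to -0.03. Lrp5 went from 0.48 to 0.16 and Znrf3 from 0.29 to 0.05. Other genes kept more of their value. Wnt7b went from 0.55 to 0.53, Fzd5 from -0.56 to -0.58, Wnt11 from 0.55 to 0.41, Rnf43 from 0.86 to 0.52 and Dkk2 from -0.86 to -0.44. Dkk3 went from 0.31 to 0.79 and Wnt5b from 0.34 to 0.58. By role, the median went from 0.32 to -0.08 for Dishevelled, from 0.06 to -0.12 for receptors and from -0.11 to 0.07 for secreted inhibitors. The medians of the other roles kept their sign.

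**Figure D5:**
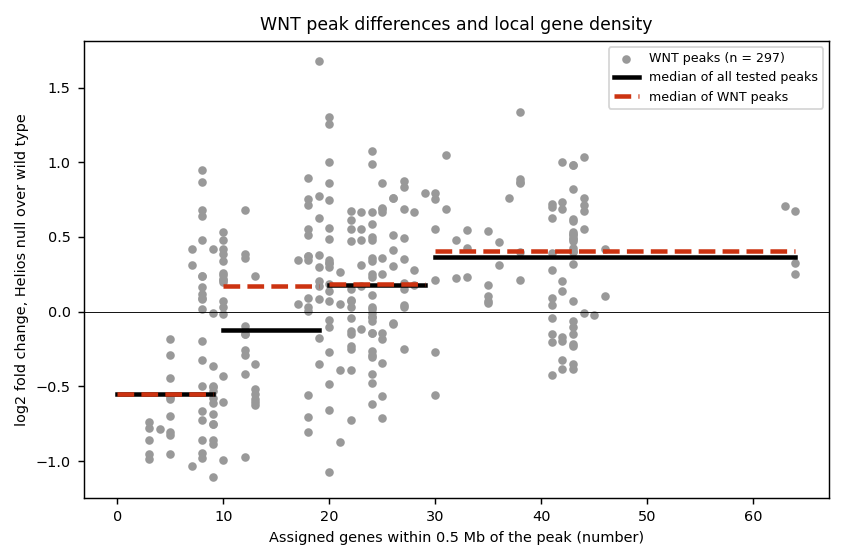
The log2 fold change of 297 WNT peaks against the number of assigned genes within 0.5 Mb, with the median of all tested peaks (solid) and of WNT peaks (dashed) in 4 bins whose edges were chosen after the data were seen. Both medians are -0.55 in the sparsest bin and 0.37 (all) and 0.41 (WNT) in the densest.

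The wild-type libraries also differed from each other at the WNT peaks without overlap. At the 60 WNT peaks where both Helios null libraries were lower, wild type 2 was above wild type 1 at 45. At the 109 where both were higher, it was below wild type 1 at 90. The same counts over all peaks without overlap were not made, so these are not read as a trait of WNT peaks. Over all tested peaks, wild type 2 was the highest of the 4 libraries at 37.1% and the lowest at 37.7%. The part of depth or of wild type 2 in these values was not tested beyond leaving the library out.

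Other genes tied to WNT signalling, 52 in number with 453 peaks, gave similar values. Their list was also drawn up with earlier results known. Their median log2 fold change was 0.13. At an unadjusted p under 0.05, 61 (13.5%, against 8.29% of all peaks) stood higher and 30 (6.62%, against 11.5%) lower, and 0 passed the adjusted test in edgeR. The 4 target genes listed (Myc, Ccnd1, Sp5 and Cd44) had 49 of 59 peaks above 0, against 50.4% of all peaks, and a median of 0.38. The median was 0.32 over 69 peaks of cytoplasmic genes and 0.23 over 96 peaks of cell surface genes. It was 0.0037 over 132 peaks of nuclear genes and -0.17 over 97 peaks of planar polarity genes. A peak of Ccnd1, which encodes cyclin D1 and is a reported WNT target, held 7.44 and 7.68 CPM in wild type and 18.5 and 14.8 CPM in Helios null. It was at 1.1 (SE 0.24, edgeR adjusted p = 0.189, DESeq2 adjusted p = 0.0229). A promoter peak of Tle1, a co-repressor that binds TCF/LEF factors, held 139 ± 53.4 CPM (SD, n = 2) in wild type and 66.1 ± 12.3 CPM in Helios null. It was at -1.07 (SE 0.25, edgeR adjusted p = 0.189, DESeq2 adjusted p = 0.0344).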

How the data were processed

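Fast-ATAC libraries were used, 2 from wild-type and 2 from Helios null mice. The submitters' processing notes name the mm10 build, Bowtie2 2.3.4.3, bcl2fastq 2.17.1.14, DESeq and HOMER, without their roles. How peaks were called, and whether on pooled libraries, was not given in the sources used here. Per the file headers, the deposited table holds raw counts per peak for each library over 1 common peak set. It also holds the authors' deposited mean signal over libraries (baseMean), log2 fold change and p-value, the last also adjusted. The headers do not say if that fold change is a shrunken one.

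From the counts, genotype was tested over all peaks with edgeR 4.0.16 in R 4.3.3 (glmQLFit and glmQLFTest, TMM scaling, filterByExpr by group, 2-sided). P-values were Benjamini-Hochberg adjusted over all 130754 tested peaks, with a threshold of 0.05. CPM values are TMM-normalised, and the fold changes are edgeR's unless another source is named. DESeq2 1.42.0, other scalings and filters, a gene density offset, the replicate number as a block and leaving out each library were tried as alternatives. The fit was tested on simulated data. A first requirement, on the share of 2-fold changes called, was not met and was replaced after that outcome was seen. Changes of that size can thus go uncalled. The library sizes, from 16033211 to 30290804 counts, limit the precision, most of all at peaks of a few CPM.

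The WNT members and all gene lists were chosen with earlier results of these data known. Peaks named were the 10 with the smallest p in each direction (at most 2 per gene), the 3 strongest promoter peaks of each role, chromosome 1 peaks of at least 1 CPM, gene medians over at least 6 tested peaks, and peaks called in the authors' deposited table. Other peaks and medians were chosen after their values were seen. Distances are from RefSeq starts, known for 34 of the 52 genes. Peak sequences away from promoters were not used here.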

Additional observations from a re-analysis of the deposited data

How the results depend on the processing

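The WNT median log2 fold change of 0.17 was above 0 under every scaling, filter, tool and member subset tried, and ran from 0.10 to 0.25 with 1 library left out. With gene density offsets it was 0.066 and 16 peaks were called in all. WNT calls were 0 under every other edgeR scaling and filter. DESeq2 called 774 peaks in all and 2 WNT peaks. With the replicate number as a block, edgeR called 30595 peaks in all (23.4%) and 78 WNT peaks (26.3%), 49 higher (16.5%, against 10.6% of all) and 29 lower (9.76%, against 12.8%). Same-numbered libraries deviated together (correlation 0.371 over 130754 peaks), but the labels do not say what a number shares, there are only 2 pairs, and sex moves with it. With 1 library left out, calls ran from 39 to 28120 in all and from 0 to 70 for WNT peaks, non-overlapping higher shares from 43.6% to 54.7% (all peaks 35.4% to 43.7%) and lower shares from 25.5% to 32.2% (all peaks 35.2% to 42.9%). The lone library of a group is then assumed to vary like the others, and non-overlap is easier to reach.

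Of 732 values of the 61 named peaks under alternatives, 702 kept their direction and 30 reversed. The density offsets gave -0.060 at Fzd7, -0.22, -0.15, -0.30 and -0.068 at Wnt10a, and -0.034 at Znrf3. They gave -0.082 at Dvl2, -0.0033 at Wnt2b, 0.00052 at a Wls intron, -0.27 at Gsk3a and -0.22 at Ctnnb1. Loess offsets gave 0.022 at Fzd7, -0.015 and 0.0013 at Wnt10a and -0.034 at Ctnnb1, and total counts gave 0.018 at Dvl1. With 1 library left out, the Fzd7 promoter ran from -0.23 to 0.083 and the Fzd7 exon from -0.056 to 0.33. The Wnt10a promoter ran from -0.52 to 0.14, the Wnt10a exon from -0.11 to 0.22 and Znrf3 from -0.19 to 0.78. Dvl3 ran from -0.18 to 0.022, Dvl1 from -0.069 to 0.042, Gsk3a from -0.016 to 0.22 and Ctnnb1 from -0.073 to 0.12. The cause was not tested.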
